A study of Mus musculus with 12 samples.

Results

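Nuclear receptors are transcription factors that bind DNA through a zinc-finger domain and, in many members, switch genes on or off when a small lipid-soluble ligand enters the cell. The family includes receptors for steroid hormones, thyroid hormone, retinoids, vitamin D, fatty acids and oxysterols. It also includes orphan members such as the Nr4a group, which act as immediate-early genes and are controlled mainly by how much of them is made. In B-lymphocyte precursors the glucocorticoid receptor Nr3c1 is the best known member, since glucocorticoids kill these cells, and estrogen is known to reduce B-cell production in the marrow. The 44 receptors described here come from a list of 46 family names. A transcript cluster (a set of probes summarised to 1 value per array) names each of the 44 without ambiguity, out of 19938 genes so named. Nr1h2 and Nr2e3 were not analysed here. Each of the 44 was read by 1 cluster, so the rule of taking the cluster with the highest mean never had to decide. The family was selected on the high signals of Pgr and Nr4a1 in Pax5+/- against WT, so their values in Pax5+/- are given as a description.

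The study measured RNA of bone marrow B-cell precursors from mice 1 month old kept under specific-pathogen-free conditions, on 12 Affymetrix Mouse Gene ST arrays. The 3 groups of 4 arrays were WT, Pax5+/- (a single working copy of Pax5, the factor that commits cells to the B lineage) and Cd72+/-;Pax5+/- (here also called combined heterozygotes, which in addition carry a single working copy of Cd72, an inhibitory co-receptor of B cells). The labels call the cells of both mutant groups preleukemic, and WT is the only group with no mutant allele. The sources used here name neither the strain, nor the deleted parts of the alleles, nor the way the cells were purified. They also do not say whether separate animals stand behind the 4 arrays of a group, so every p-value measures the spread between arrays, which may be technical. All values are log2 signals as deposited, on which a step of 1 is 2-fold. A receptor is called changed where limma's adjusted p (Benjamini-Hochberg over all 23410 clusters with a gene symbol) was under 0.05.

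Some facts of the arrays touch every result. Arrays of a group fell into closest pairs: WT replicates 1 and 3 differed with an SD of 0.113 and WT replicates 2 and 4 with 0.123, against 0.261 to 0.27 for the other WT pairs. In Pax5+/- the same numbering gave 0.179 and 0.13, against 0.192 to 0.276. In the combined heterozygotes all pairs lay between 0.125 and 0.187. The 15 measured pro-B markers were all above the array median, with means of 10.84 to 11.70 over the 12 arrays. The mean of 15 stromal and endothelial markers was 7.40 to 7.88 in WT, 6.99 to 7.70 in Pax5+/- and 6.77 to 6.97 in the combined heterozygotes, and in WT and Pax5+/- it was higher on replicates 1 and 3. The pro-B mean split the WT arrays in the same way and by more, with 11.67 and 11.70 on replicates 1 and 3 and 10.87 and 10.84 on replicates 2 and 4, and in Pax5+/- it was 11.27 to 11.40. Marker means over the 12 arrays were 6.08 to 6.33 for granulocytes, 6.52 to 6.66 for T cells, 5.59 to 6.00 for NK cells, 7.22 to 7.69 for erythroid cells and 7.94 to 8.27 for plasmacytoid dendritic cells. Xist read 11.75 to 11.90 in the combined heterozygotes and 5.00 to 5.52 on the other 8 arrays, and Uty, on the Y chromosome, the reverse, so in comparisons with the combined heterozygotes sex-linked differences cannot be told apart from genotype. Only Nr0b1 among the 44 receptors lies on the X chromosome, and it read 5.52 ± 0.0723, 5.51 ± 0.0812 and 5.44 ± 0.0173 (SD, n = 4) in WT, Pax5+/- and Cd72+/-;Pax5+/-. Pax5 itself fell by 0.60 in Pax5+/- (adjusted p = 0.0051) and read 0.36 lower in the combined heterozygotes, which did not pass (change -0.36, adjusted p = 0.0781). Cd72 changed against WT by 1.29 in Pax5+/- (limma adjusted p = 0.000827) and by -1.39 in the combined heterozygotes (adjusted p = 0.000492).

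The array median, taken over all clusters of an array, lay between 6.91 and 7.005. By their mean over the 12 arrays 22 receptors stood above it and 22 below. The class above ran from Esr1 at 7.13 to Nr2c2 at 10.31, and the class below from Nr4a3 at 5.04 to Ppara at 6.71, these being the values just inside and just outside it. A signal also depends on the probes, so an order among receptors is 1 of signal and not of transcript amount. The class above held the thyroid hormone receptors Thra and Thrb, the retinoid receptors Rara, Rarg, Rxra and Rxrb, the clock repressors Nr1d1 and Nr1d2, the glucocorticoid receptor Nr3c1, Ppard, and most orphan receptors of the Nr2c, Nr4a and Esrr groups, but also Hnf4a, a liver factor, and Nr5a1, a steroidogenic factor. The class below held the receptors best known from liver, gut and fat, such as Ppara, Pparg, Nr1h3, Nr1h4, Nr1i2, Nr1i3 and Nr0b2, together with Vdr, Esr2, Nr3c2, Rarb, Rxrg and the Ror group members Rora and Rorb. All 22 of the class below stayed under the median on all 12 arrays, and 18 of the class above stayed over it. The 4 that crossed were Pgr, Esr1, Rarg and Rxra. Pgr was above the median on the 4 Pax5+/- arrays and on none of the other 8, so its place in the class above rests on Pax5+/-.

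**Figure D1:**
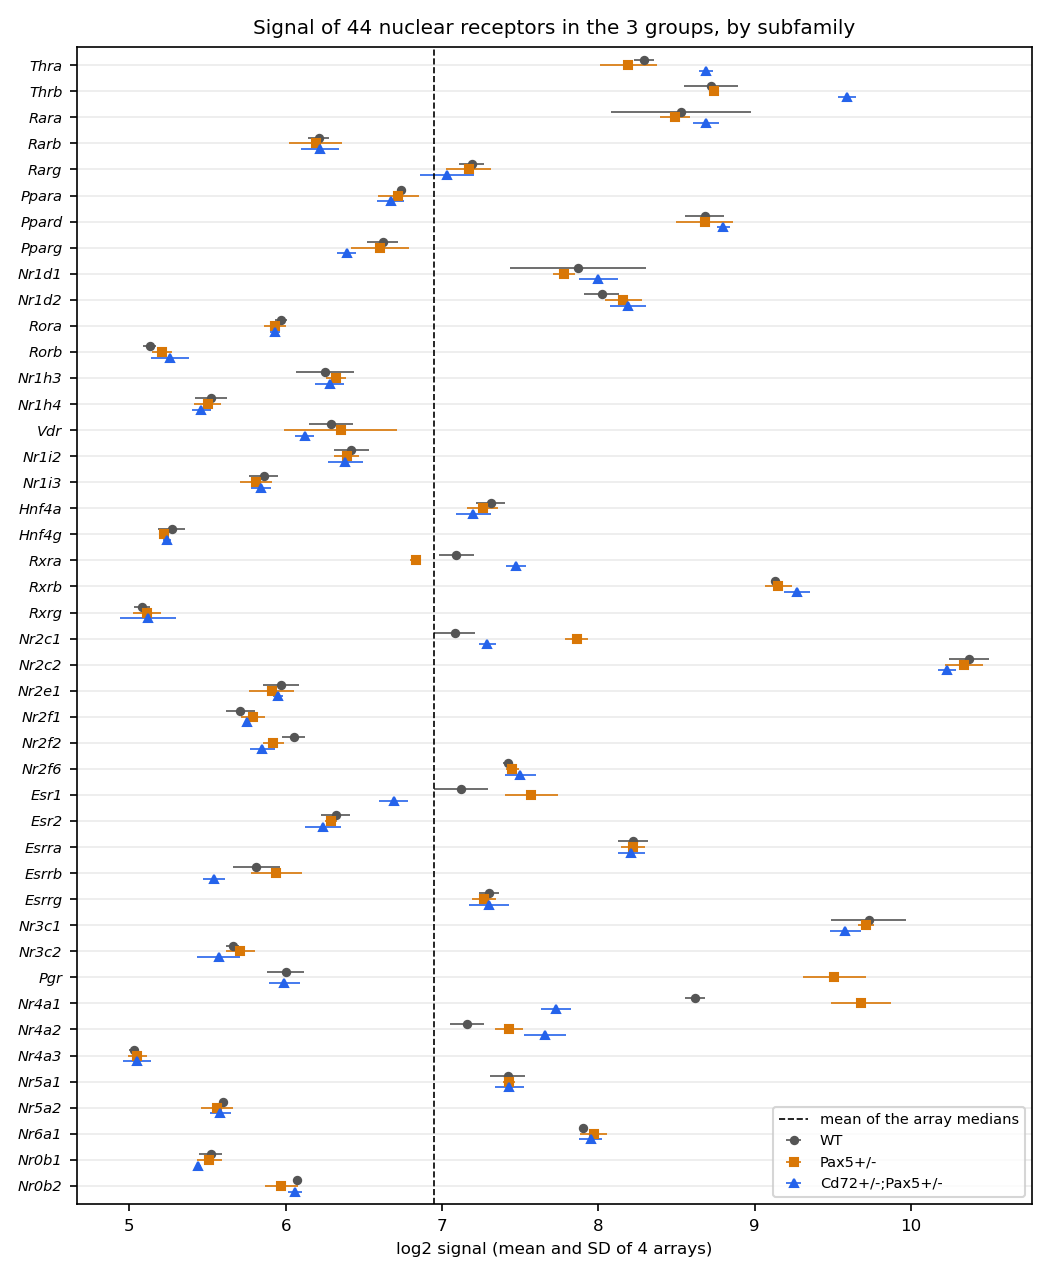
Mean log2 signal (points) with its SD (bars) over 4 arrays for each of the 44 nuclear receptors in WT, Pax5+/- and Cd72+/-;Pax5+/-, ordered by subfamily, with the mean of the array medians (6.95) as a dashed line. Most receptors keep 1 level in all 3 groups, while Pgr crosses the line in Pax5+/- alone, from 6.00 in WT to 9.51.

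In Pax5+/- against WT 5 of the 44 receptors were called, which is 11.4%, against 7.47% of all clusters tested. This count includes Pgr and Nr4a1, which selected the list, and without them it was 3 of 42 (7.14%), near the background. The 4 higher ones were Pgr, Nr4a1, Esr1 and Nr2c1 (4.28% of all clusters were called higher), and Rxra was lower (3.2%). The calls lay in the class above the array median, 5 of 22 (22.7%), or 3 of 20 (15%) without Pgr and Nr4a1, against 11.5% of all clusters above it. By limma none of the 22 below was called (2.97% of all clusters below it were). In that lower class 1 of 22 had an unadjusted limma p under 0.05. The median change over the 44 receptors was -0.009, and over all clusters -0.005.

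In the combined heterozygotes against the same 4 WT arrays 7 receptors were called (15.9%, against 7.78% of all clusters). The 4 higher ones were Thra, Thrb, Rxra and Nr4a2 (4.12% of all clusters were called higher), and the 3 lower ones were Nr4a1, Esr1 and Nr2f2 (3.66%). In the combined heterozygotes against the same Pax5+/- arrays 8 were called (18.2%, against 9.79%), with Thra, Thrb and Rxra higher (4.44% of all clusters) and Pgr, Nr4a1, Esr1, Nr2c1 and Esrrb lower (5.35%). Without Pgr and Nr4a1 both counts were 6 of 42 (14.3%), and in the class above the median 5 of 20 (25%) each. In these 2 comparisons the class above held 6 and 7 of the calls (27.3% and 31.8% of it, against 11.8% and 14.8% of all clusters above the median). The class below held 1 in each (4.55%, against 3.22% and 4.14%). In all, 10 receptors were called in at least 1 comparison, 34 in none, and 3 (Nr4a1, Esr1 and Rxra) in all 3. The comparisons share arrays, so these counts are not independent of each other. At the study's own threshold, a change over 2-fold with an unadjusted p under 0.05, the counts were 2, 0 and 2, the 2 being Pgr and Nr4a1 in both cases, and 0 of the other 42 receptors passed in any comparison. Of all clusters 0.957%, 0.914% and 1.2% passed, a share that cannot be read against counts which the selection fixed. The arrays of the groups compared did not overlap for 6, 8 and 10 receptors (13.6%, 18.2% and 22.7%), against 10.7%, 14.8% and 18.5% of all clusters.

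**Figure D2:**
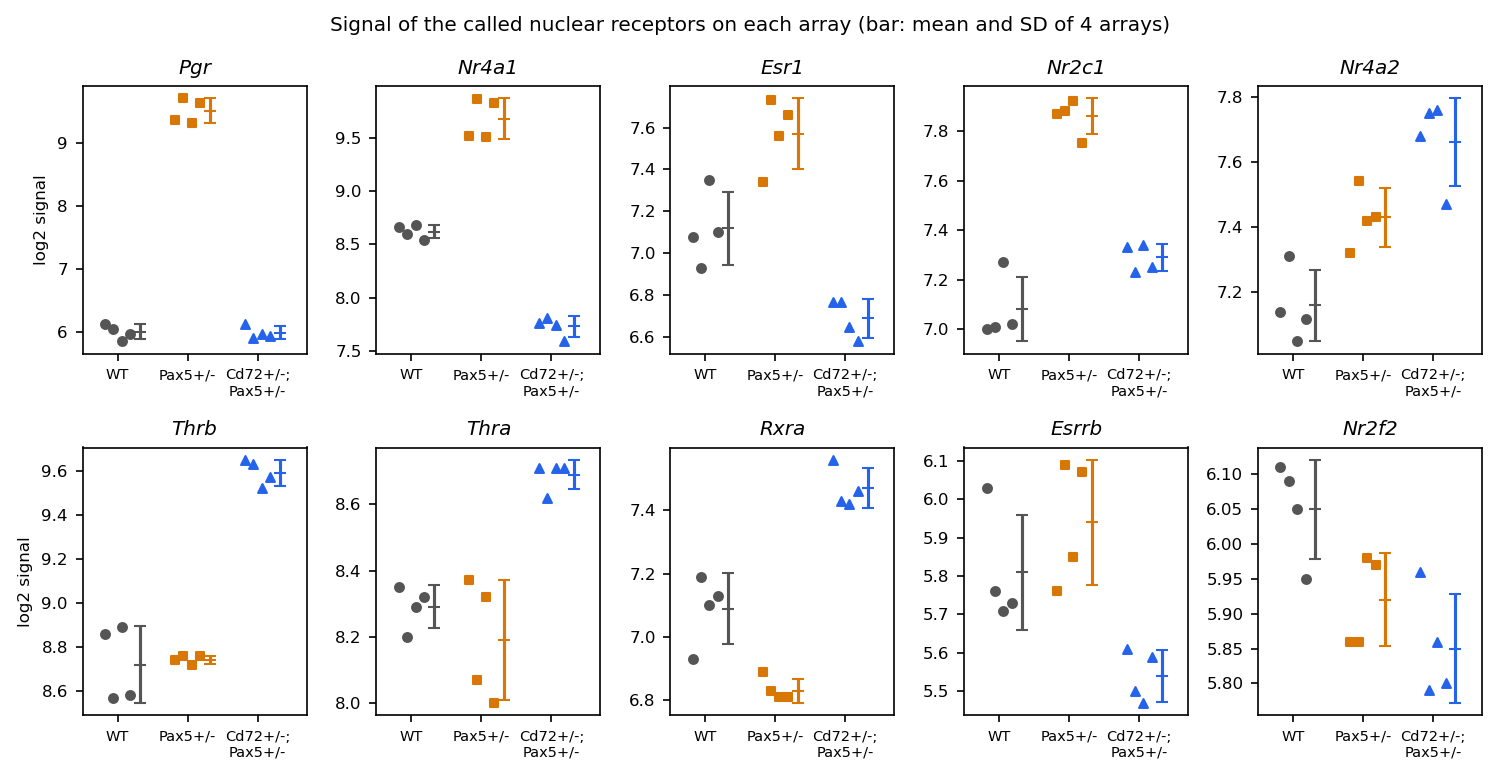
Log2 signal of the 10 called receptors on each array (points), with the mean and SD of 4 arrays beside each group. The y axes differ between panels and do not start at 0. Nr4a1 stands highest in Pax5+/- (9.51 to 9.87) and lowest in Cd72+/-;Pax5+/- (7.59 to 7.81), while Thrb stands apart in Cd72+/-;Pax5+/- alone (9.52 to 9.65).

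Pgr, the progesterone receptor, was the receptor with the widest range. It read 6.13, 6.04, 5.85 and 5.96 on the WT arrays, 9.36, 9.71, 9.31 and 9.64 on the Pax5+/- arrays, and 6.13, 5.91, 5.97 and 5.94 on the arrays of the combined heterozygotes. The Pax5+/- arrays lay far above all others, with no overlap, and the other groups lay within the same narrow range below the array median. The means were 6.00 ± 0.119, 9.51 ± 0.199 and 5.99 ± 0.0981 (SD, n = 4), which is a log2 change of 3.51 (SE 0.0944, 11.4-fold) in Pax5+/- and a difference of -3.52 (SE 0.0944, 11.5-fold) between the combined heterozygotes and Pax5+/-. Between the combined heterozygotes and WT the change was -0.01 (SE 0.0944, limma adjusted p = 0.982), both means being under the array median. In bulk RNA a larger share of cells with the transcript and more transcript per cell cannot be told apart. Of the markers of other cell types, the mean of 10 monocyte and macrophage markers was 7.01 to 7.04 in Pax5+/-, 6.58 to 6.91 in WT and 6.56 to 6.59 in the combined heterozygotes. By limma 1 of the 10 was called higher and 0 lower in Pax5+/- against WT, where 7.47% of all clusters were called. In the combined heterozygotes 2 were higher and 1 lower against WT (7.78% of all clusters called). Against Pax5+/- 1 was higher and 2 were lower (9.79%). Of these markers Csf1r, Adgre1, Cx3cr1, C1qa, C1qb, Vcam1 and Cd14 lay below the array median. The part of such cells in the Pgr signal was not tested. The stromal marker mean was lower on Pax5+/- replicates 2 and 4, where Pgr was at its highest. Without replicates 1 and 3 of WT and Pax5+/- the change of Pgr was 3.67. The part of stromal cells in the Pgr signal was not tested either.

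Of the 10 measured genes nearest to Pgr on chromosome 9, limma called 1 in Pax5+/- and 1 in the combined heterozygotes against WT. At an unadjusted p under 0.05 there were 2 and 1, and 7.47% and 7.78% of all clusters were called. All but Maml2 and Mtmr2 lay below the array median, where only 2.97% and 3.22% of clusters were called. Of the 5 measured genes on each side, in the order of the RefSeq table, Trpc6, the nearest on one side and a calcium-permeable cation channel, rose in Pax5+/- by 0.64 (SE 0.05, adjusted p = 3.33e-06), from 5.81 ± 0.0289 to 6.45 ± 0.0754. It read 5.89 ± 0.0665 in the combined heterozygotes (change against WT 0.08, adjusted p = 0.46). Trpc6, like Pgr, was highest in Pax5+/-, at a far smaller size, and stayed below the array median on all 12 arrays. Arhgap42, the nearest gene on the other side, differed in another group: it read 6.52 in WT, 6.47 in Pax5+/- and 5.61 in the combined heterozygotes, where it fell by 0.91 (SE 0.101, adjusted p = 8.36e-05). The other 8 (Yap1, Cfap300, Cep126, 1700128F08Rik, Cntn5, Maml2, Phxr4 and Mtmr2) were called in neither comparison with WT. Of these, Maml2 read 0.26 higher in Pax5+/- than in WT, without overlap (adjusted p = 0.0557).

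**Figure D3:**
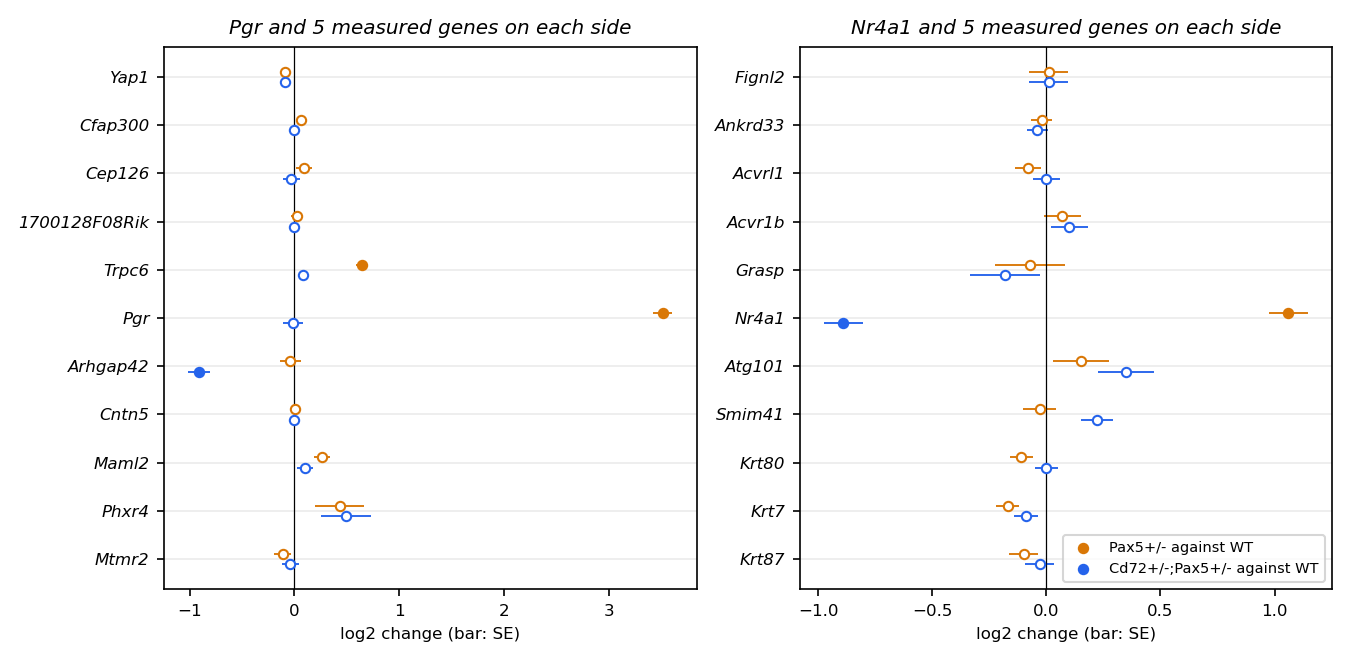
Log2 change against WT (points, with the SE of the fit as bars) of Pgr, of Nr4a1 and of the 5 measured genes on each side of them, in chromosome order, for Pax5+/- and Cd72+/-;Pax5+/-. Filled points are called and open ones are not. Beside Pgr at 3.51, Trpc6 shows a smaller rise of 0.64 in Pax5+/-, and no gene beside Nr4a1 is called in either comparison.

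Over the 12 arrays the genes whose signal was most like that of Pgr were Frmd4b and Osbpl3 (Pearson r = 0.996 each), Adgre5 and Slc15a2 (0.994 each) and Bace1 (0.99). These correlations run over arrays of 3 groups and reflect the difference of Pax5+/- from the other 2, and they are given as a description. Frmd4b read 6.07 ± 0.0733, 9.16 ± 0.269 and 6.27 ± 0.0785 in WT, Pax5+/- and Cd72+/-;Pax5+/-. Adgre5, an adhesion receptor of leukocytes also known as CD97, read 5.81 ± 0.15, 8.61 ± 0.286 and 5.58 ± 0.0538.

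The Nr4a receptors are orphan members induced within minutes by many stimuli, among them antigen-receptor and cyclic AMP signals. Their promoters are shown because all 3 share a feature that the array did not measure. The 250 bases before the start site were taken from RefSeq (GRCm38.p6) and searched on both strands for TGACG, the core of the cyclic AMP response element (CGTCA where it lies on the opposite strand). Each sequence is printed 5′ to 3′ along the gene's own strand, with matches in capitals, and Pgr is added for comparison.
Nr4a1: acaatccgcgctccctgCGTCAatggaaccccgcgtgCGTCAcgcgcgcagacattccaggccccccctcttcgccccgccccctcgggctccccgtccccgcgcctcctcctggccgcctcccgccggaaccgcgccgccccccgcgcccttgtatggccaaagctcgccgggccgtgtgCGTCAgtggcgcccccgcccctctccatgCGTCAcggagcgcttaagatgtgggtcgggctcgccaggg
Nr4a2: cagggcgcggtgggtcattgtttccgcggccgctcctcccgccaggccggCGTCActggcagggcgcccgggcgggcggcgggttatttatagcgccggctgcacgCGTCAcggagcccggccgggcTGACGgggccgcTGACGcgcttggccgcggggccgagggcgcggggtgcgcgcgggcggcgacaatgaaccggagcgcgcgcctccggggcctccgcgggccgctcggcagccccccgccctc
Nr4a3: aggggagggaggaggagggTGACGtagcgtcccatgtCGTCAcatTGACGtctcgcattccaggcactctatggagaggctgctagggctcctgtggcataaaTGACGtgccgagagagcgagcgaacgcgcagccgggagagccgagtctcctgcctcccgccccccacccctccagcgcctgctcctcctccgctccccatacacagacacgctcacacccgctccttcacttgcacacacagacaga
Pgr: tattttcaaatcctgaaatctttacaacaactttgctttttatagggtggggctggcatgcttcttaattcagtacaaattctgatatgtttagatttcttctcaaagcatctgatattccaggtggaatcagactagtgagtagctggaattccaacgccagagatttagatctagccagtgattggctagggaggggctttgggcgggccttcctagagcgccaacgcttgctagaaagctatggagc
They lie at chr15:101266596-101266845 (plus strand), chr2:57124004-57124253 (minus strand), chr4:48045055-48045304 (plus strand) and chr9:8899583-8899832 (plus strand). Nr4a1, Nr4a2 and Nr4a3 hold 4 matches each and Pgr holds 0. Of 32851 mouse promoters of the same length, 17.8% hold at least 1 match and 0.137% hold at least 4. In these counts matches on opposite strands may overlap, as in the full palindromic element, where TGACG runs into CGTCA. Of the promoters printed above 0 hold that full element, and their matches do not overlap. Among the 61 promoter entries of 40 receptors in the table, 13 hold a match and only these 3 hold 4. The Nr4a1 and Nr4a2 stretches are also rich in CG dinucleotides, with 34 and 44, against 18 for Nr4a3, 4 for Pgr and a median of 6 over all promoters. A match describes the letters and shows no binding.

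The 3 Nr4a genes share this feature and behaved differently on the arrays. Nr4a1 read 8.66, 8.60, 8.68 and 8.54 in WT, 9.52, 9.87, 9.51 and 9.83 in Pax5+/-, and 7.76, 7.81, 7.74 and 7.59 in the combined heterozygotes. All 4 Pax5+/- arrays were above, and all 4 arrays of the combined heterozygotes below, every WT array. The means were 8.62 ± 0.0632, 9.68 ± 0.194 and 7.73 ± 0.0947 (SD, n = 4), a log2 change of 1.06 (SE 0.0857, 2.09-fold) in Pax5+/-, given as a description. In the combined heterozygotes Nr4a1 fell by 0.89 against WT (SE 0.0857, 1.86-fold, limma adjusted p = 2.25e-05), and its difference from Pax5+/- was -1.96 (3.88-fold). With the closest pairs of arrays averaged, the fall against WT no longer passed (change -0.89, adjusted p = 0.0523, the highest over its 21 alternatives). The monocyte and macrophage marker means given beside Pgr were also highest in Pax5+/-. They were 6.58 to 6.91 in WT and 6.56 to 6.59 in the combined heterozygotes. The part of such cells in the Nr4a1 signal was not tested.

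Nr4a2 followed another order. It read 7.14, 7.31, 7.05 and 7.12 in WT, 7.32, 7.54, 7.42 and 7.43 in Pax5+/-, and 7.68, 7.75, 7.76 and 7.47 in the combined heterozygotes. WT was the lowest group with no overlap, and the 2 mutant groups overlapped. Nr4a2 rose in the combined heterozygotes by 0.51 (1.42-fold, adjusted p = 0.000924), while its change in Pax5+/- missed the threshold (0.27, SE 0.0765, adjusted p = 0.0503). So in the combined heterozygotes Nr4a1 fell below WT and Nr4a2 rose above it. The rise of Nr4a2 did not pass with the closest pairs averaged (adjusted p = 0.0708, the highest over its 21 alternatives). Nr4a3 lay below the array median on every array, with 5.03 ± 0.034, 5.05 ± 0.0622 and 5.05 ± 0.0902, and was called in no comparison (adjusted p = 0.92, 0.919 and 1).

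None of the 10 genes nearest to Nr4a1 on chromosome 15 was called by limma against WT in either mutant group. In each, 2 had an unadjusted p under 0.05, and 7.47% and 7.78% of all clusters were called. Between the mutant groups 1 of the 10 was called, against 9.79% of all clusters. This was Smim41, which rose by 0.25 in the combined heterozygotes against Pax5+/- (adjusted p = 0.0463). That call was lost in 11 of 21 alternatives (adjusted p up to 0.352). The genes most like Nr4a1 over the 12 arrays were Nlrp3 (r = 0.987), Meis2 and Chst3 (0.984 each), Pla2g15 (0.983) and Man1a (0.982), again as a description over 3 groups. Meis2, a homeobox factor, read 6.62 ± 0.0585, 7.86 ± 0.0954 and 5.88 ± 0.0947 in WT, Pax5+/- and Cd72+/-;Pax5+/-. Nlrp3, an inflammasome sensor best known from myeloid cells, read 6.39 ± 0.137, 7.46 ± 0.185 and 5.67 ± 0.129.

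Among targets and partners of the Nr4a receptors, 10 of 11 listed genes were measured. In Pax5+/- 1 rose and 1 fell, in the combined heterozygotes limma called none against WT (0 also at an unadjusted p under 0.05), and against Pax5+/- 1 was higher and 1 lower. The same genes made up both pairs (20% called in each, against 7.47% and 9.79% of all clusters, and 7.78% where none was called). Pdcd1, the inhibitory receptor PD-1, rose in Pax5+/- by 1.02 (adjusted p = 8.65e-07), from 6.71 to 7.74, and read 6.72 in the combined heterozygotes (change against WT 0.01, adjusted p = 0.984). Bcl2l11, which encodes the pro-apoptotic protein Bim, fell in Pax5+/- by 0.71 (adjusted p = 0.0432), a call lost in 14 of 21 alternatives, with adjusted p up to 0.585. It was higher in the combined heterozygotes than in Pax5+/- by 0.90 (adjusted p = 0.00922, and 0.323 at most, with the closest pairs averaged).

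Of the other steroid receptors, Esr1, estrogen receptor alpha, had the same order of groups as Nr4a1. It read 7.08, 6.93, 7.35 and 7.10 in WT, 7.34, 7.73, 7.56 and 7.66 in Pax5+/-, and 6.77, 6.77, 6.65 and 6.58 in the combined heterozygotes. Pax5+/- overlapped WT at a single array of each group, and the combined heterozygotes lay below both without overlap. Esr1 rose in Pax5+/- by 0.46 (SE 0.0973, 1.37-fold, adjusted p = 0.0105, and an exact two-sided permutation p of 0.0571, where 4 arrays against 4 cannot go below 0.0286). It fell in the combined heterozygotes by 0.42 against WT (1.34-fold, adjusted p = 0.0179), and its difference from Pax5+/- was -0.88 (1.84-fold, adjusted p = 5.95e-05). With the closest pairs averaged the first 2 calls ended (adjusted p = 0.267 and 0.303, the highest over their alternatives). The call against WT in the combined heterozygotes also ended without their replicate 3 (change -0.41, adjusted p = 0.0554) or their replicate 4 (-0.38, adjusted p = 0.0602). Without replicates 1 and 3 of WT and Pax5+/- the rise in Pax5+/- was 0.68.

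Nr3c1, the glucocorticoid receptor, was among the receptors with the highest signal and was called in no comparison. It read 9.93, 9.46, 9.94 and 9.61 in WT, 9.63, 9.74, 9.72 and 9.74 in Pax5+/-, and 9.48, 9.53, 9.69 and 9.64 in the combined heterozygotes. The groups overlapped, and the 4 WT arrays alone spanned the range of all 12. Its changes were -0.03 (adjusted p = 0.936) and -0.15 (adjusted p = 0.469) against WT. Esr2, estrogen receptor beta, and Nr3c2, the mineralocorticoid receptor, lay below the array median in every group, at 6.24 to 6.32 and 5.57 to 5.71. Among the estrogen-related orphan receptors Esrra read 8.21 to 8.22 and Esrrg 7.27 to 7.30, and neither was called.

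Esrrb, the remaining member of that group, lay below the array median and was lower in the combined heterozygotes than in Pax5+/-. It read 6.03, 5.76, 5.71 and 5.73 in WT, 5.76, 6.09, 5.85 and 6.07 in Pax5+/-, and 5.61, 5.50, 5.47 and 5.59 in the combined heterozygotes. The combined heterozygotes lay below every other array, by a small margin. Its difference from Pax5+/- was -0.40 (SE 0.0878, 1.32-fold, adjusted p = 0.011) and from WT -0.27 (adjusted p = 0.0965, not called). With the closest pairs averaged the call ended (adjusted p = 0.226, the highest over its 20 alternatives).

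Steroid receptors work with chaperones and coregulators, and with target genes that report on them in other tissues. Of 9 measured chaperones limma called none in either comparison with WT, where 7.47% and 7.78% of all clusters were called. At an unadjusted p under 0.05 there were 3 in Pax5+/- and 0 in the combined heterozygotes. Between the mutant groups 1 was called, Fkbp5 (11.1%, near the 9.79% of all clusters). Fkbp5, which is also a glucocorticoid and progesterone target, was higher in the combined heterozygotes than in Pax5+/- by 0.71 (SE 0.159, adjusted p = 0.0124, and 0.345 at most, with the closest pairs averaged). Its means were 9.81, 9.33 and 10.04 in WT, Pax5+/- and the combined heterozygotes. The chaperones' median change in Pax5+/- was -0.207, against -0.005 over all clusters.

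Of 14 glucocorticoid receptor targets, all measured, 1 rose and 2 fell in Pax5+/-, 2 rose and 2 fell in the combined heterozygotes, and 3 were higher and none lower in the combined heterozygotes than in Pax5+/- (21.4%, 28.6% and 21.4% called, against 7.47%, 7.78% and 9.79% of all clusters). Mt2, a metallothionein, read 10.80 in WT, 7.73 in Pax5+/- and 8.57 in the combined heterozygotes, and relative to WT it fell by 3.06 (adjusted p = 5.89e-07) and fell by 2.22 (adjusted p = 1.09e-05). Sgk1, a serum- and glucocorticoid-regulated kinase, fell by 0.71 (adjusted p = 0.000638) and by 0.92 (adjusted p = 8.58e-05). Klf9, a zinc-finger factor that answers to both glucocorticoids and thyroid hormone, rose by 0.34 (adjusted p = 0.000558) and by 0.65 (adjusted p = 2.41e-06). Dusp1, a MAP kinase phosphatase, rose in the combined heterozygotes by 0.43 (adjusted p = 0.00445). With the closest pairs averaged both falls of Sgk1 (adjusted p = 0.119 and 0.06), the rise of Klf9 in Pax5+/- (0.126) and that of Dusp1 (0.179) did not pass, each being the highest over its alternatives, while the falls of Mt2 and the rise of Klf9 in the combined heterozygotes passed (at most 0.00688, 0.019 and 0.0225). Targets of the same receptor thus moved in both directions, and the median change of the list was 0.038 and 0.091 against WT.

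Of 13 measured progesterone and estrogen receptor targets, a list that includes Pgr itself, 2 were higher and 1 lower in Pax5+/-. Pgr and Rgs2 were higher and Ccnd1 lower (23.1% called, against 7.47% of all clusters). Pgr is counted here on the signal that selected the family, so part of this share was fixed in advance. Rgs2 rose by 1.31 (limma adjusted p = 0.0102), to 9.01 to 9.14 in Pax5+/-. Its WT arrays read 8.49, 7.03, 8.40 and 7.16, split by the closest pairs. Ccnd1, cyclin D1, read 9.35 in WT, 7.97 in Pax5+/- and 9.80 in the combined heterozygotes. It fell in Pax5+/-, where Pgr was high, by 1.38 (SE 0.129, adjusted p = 1.63e-05), which just missed the threshold with the closest pairs averaged (adjusted p = 0.0505, the highest over its alternatives). Tnfsf11, the cytokine RANKL and a known progesterone target in the breast, changed by -0.14 in Pax5+/-, which did not pass, and fell in the combined heterozygotes by 0.74 (adjusted p = 0.00262, and 0.254 at most, with the closest pairs averaged). None of the 13 rose in the combined heterozygotes against WT and 2 fell, Tnfsf11 and Cxcl12, the latter also a stromal marker (15.4% called, against 7.78%). Against Pax5+/- 2 were higher and 5 lower, Pgr among them (53.8%, against 9.79%), so part of this share was also fixed in advance.

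Thyroid hormone receptors and the retinoid X receptor, which pairs with them on DNA, were higher in the combined heterozygotes. Thrb read 8.86, 8.57, 8.89 and 8.58 in WT, 8.74, 8.76, 8.72 and 8.76 in Pax5+/-, and 9.65, 9.63, 9.52 and 9.57 in the combined heterozygotes. The combined heterozygotes lay above all other arrays by a wide margin, and Pax5+/- lay inside the WT range. Thrb rose against WT by 0.87 (SE 0.0729, 1.82-fold, adjusted p = 7.28e-06) and against Pax5+/- by 0.85 (1.8-fold, adjusted p = 7.00e-06). Both calls held in the 21 alternatives that keep the adjusted p under 0.05 as the threshold, with adjusted p up to 0.0396 and 0.035, and neither change reached the study's 2-fold. In Pax5+/- its change was 0.02 (adjusted p = 0.938).

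Thra read 8.35, 8.20, 8.29 and 8.32 in WT, 8.37, 8.07, 8.32 and 8.00 in Pax5+/-, and 8.71, 8.62, 8.71 and 8.71 in the combined heterozygotes, again above all other arrays. It rose against WT by 0.40 (SE 0.0773, 1.32-fold, adjusted p = 0.00624) and against Pax5+/- by 0.50 (1.41-fold, adjusted p = 0.000978), and with the closest pairs averaged neither passed (adjusted p = 0.293 and 0.149, the highest over their alternatives). Thra overlaps Nr1d1 on chromosome 11 in the RefSeq table. Nr1d1 read 7.87 ± 0.433, 7.78 ± 0.0714 and 8.00 ± 0.123 and was not called.

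Rxra, retinoid X receptor alpha, was the only receptor called lower in Pax5+/-. It read 6.93, 7.19, 7.10 and 7.13 in WT, 6.89, 6.83, 6.81 and 6.81 in Pax5+/-, and 7.56, 7.43, 7.42 and 7.46 in the combined heterozygotes. The 3 groups did not overlap, with Pax5+/- lowest and the combined heterozygotes highest, the reverse of the order of Nr4a1 and Esr1. Rxra fell in Pax5+/- by 0.25 (1.19-fold, adjusted p = 0.0168) and rose in the combined heterozygotes by 0.38 against WT (1.3-fold, adjusted p = 0.00104). Against Pax5+/- it rose by 0.63 (1.55-fold, adjusted p = 1.19e-05), the call that held in all 21 of those alternatives. The fall in Pax5+/- did not pass without WT replicate 2 (adjusted p = 0.0567), without WT replicate 4 (0.0539), with only those groups in the fit (0.0548) or with the closest pairs averaged (0.308), and the rise against WT did not pass with the closest pairs averaged (adjusted p = 0.112 at most). Its relatives Rxrb (9.13, 9.15 and 9.27) and Rxrg (5.08, 5.11 and 5.12) were called in no comparison.

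**Figure D4:**
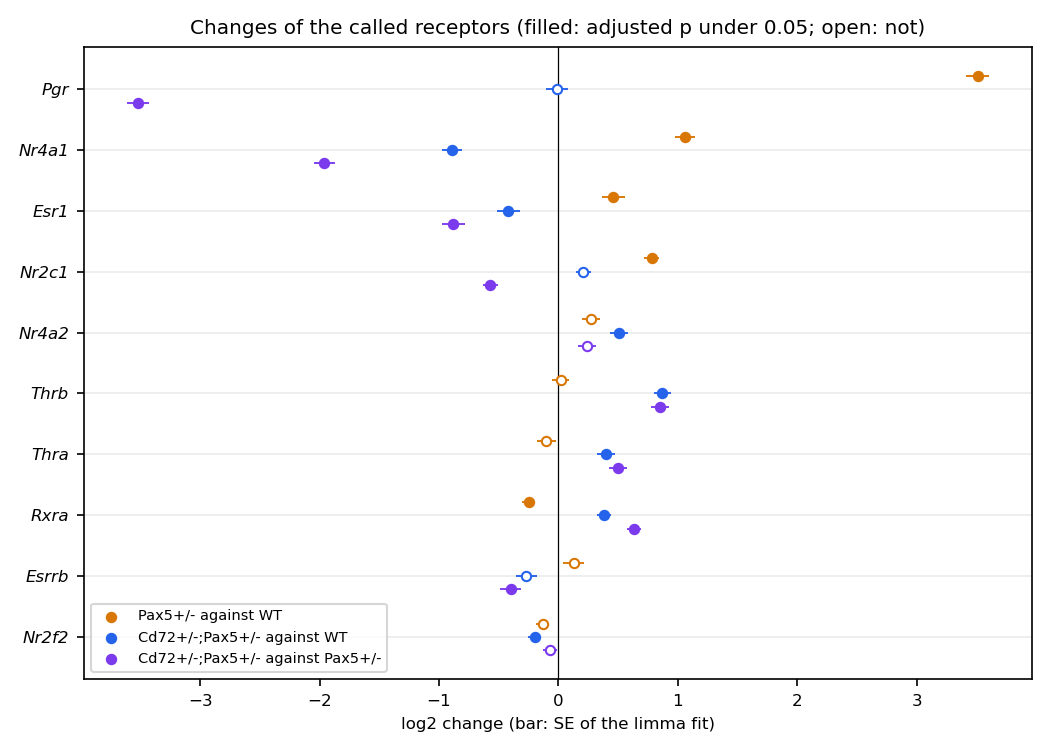
Log2 change of the 10 called receptors in the 3 comparisons (points, with the SE of the limma fit as bars). Filled points are called and open ones are not. Pgr, Nr4a1, Esr1 and Nr2c1 lie to the right in Pax5+/- against WT and to the left in Cd72+/-;Pax5+/- against Pax5+/-, while Rxra does the opposite (-0.25 and 0.63).

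Thyroid hormone and vitamin D pathway genes gave the same 2 calls in each comparison among 8 measured of 10 listed (25%, against 7.47%, 7.78% and 9.79% of all clusters). Klf9 was higher, with the values against WT given among the glucocorticoid targets, and Dio2, the deiodinase that activates thyroid hormone, was lower. Dio2 read 6.79, 6.29 and 6.00 in WT, Pax5+/- and the combined heterozygotes, below the array median throughout, and fell against WT by 0.50 (adjusted p = 0.000979, and 0.09 at most, with the closest pairs averaged) and by 0.79 (adjusted p = 2.35e-05). Between the mutant groups its change was -0.29 (limma adjusted p = 0.0296), a call lost in 6 of 20 alternatives, with adjusted p up to 0.272. Klf9 changed there by 0.31 (adjusted p = 0.000987, and 0.13 at most, with the closest pairs averaged). In the combined heterozygotes both thyroid hormone receptors rose and the activating enzyme fell. Of 12 measured retinoid pathway genes 1 was called in 2 of the comparisons (8.33%, near the 7.47% and 9.79% of all clusters). This was Dhrs3, a retinal reductase. It rose in Pax5+/- by 1.02 (adjusted p = 0.00836, and 0.366 at most) and was lower in the combined heterozygotes than in Pax5+/- (change -1.28, adjusted p = 0.00141, and 0.185 at most). Of 13 measured clock genes 1, Clock, was called in Pax5+/- against WT (7.69%, near the 7.47% of all clusters). Its change was -0.30 (adjusted p = 0.00732, and 0.257 at most, with the closest pairs averaged). In the comparisons with the combined heterozygotes no clock gene was called by limma (5 in each at an unadjusted p under 0.05). Of all clusters 7.78% and 9.79% were called there.

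Nr2c1, the orphan testicular receptor 2 (TR2), rose in Pax5+/-. It read 7.00, 7.01, 7.27 and 7.02 in WT, 7.87, 7.88, 7.92 and 7.75 in Pax5+/-, and 7.33, 7.23, 7.34 and 7.25 in the combined heterozygotes. Pax5+/- lay above all other arrays, and the combined heterozygotes overlapped only with WT replicate 3. Nr2c1 rose by 0.78 (SE 0.0653, 1.72-fold, adjusted p = 6.11e-06) and was lower in the combined heterozygotes than in Pax5+/- (change -0.57, 1.48-fold, adjusted p = 8.28e-05). Both calls held in all 21 of those alternatives, with adjusted p up to 0.0135 and 0.0288. Against WT the combined heterozygotes changed by 0.21 (adjusted p = 0.072). Its close relative Nr2c2 (TR4), above the array median throughout, read 10.37 ± 0.126, 10.34 ± 0.121 and 10.23 ± 0.0556 and was not called.

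Nr2f2, the orphan receptor COUP-TFII, was the only receptor under the array median called against WT. It read 6.11, 6.09, 6.05 and 5.95 in WT, 5.86, 5.86, 5.98 and 5.97 in Pax5+/-, and 5.96, 5.79, 5.86 and 5.80 in the combined heterozygotes, where the groups overlapped. Its fall of 0.20 in the combined heterozygotes (change -0.20, 1.15-fold, adjusted p = 0.0486, exact two-sided permutation p = 0.0571) failed in 13 of 20 alternatives, with adjusted p up to 0.309, and Nr2f2 overlaps the transcript B130024G19Rik in the RefSeq table.

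The 34 receptors called in no comparison included the fatty acid receptors and the oxysterol receptor Nr1h3. Ppard read 8.68 ± 0.124, 8.68 ± 0.184 and 8.80 ± 0.0387 in WT, Pax5+/- and Cd72+/-;Pax5+/-. Pparg, below the array median, read 6.42, 6.43, 6.40 and 6.30 in the combined heterozygotes and 6.75, 6.56, 6.65 and 6.53 in WT, which did not overlap, yet its change of -0.23 did not pass (adjusted p = 0.124). Vdr, the vitamin D receptor, had the widest spread of the family within Pax5+/-, with 6.69, 6.16, 6.61 and 5.94, where replicates 1 and 3 were the higher ones. Rara, retinoic acid receptor alpha, had the widest spread within WT, with 8.06, 8.92, 8.23 and 8.90, and Nr1d1 followed with 7.44, 8.32, 7.57 and 8.16. For both, WT replicates 2 and 4 were the higher ones. These are also the WT arrays with the lower means of pro-B, stromal, monocyte and NK-cell markers, and what these have to do with the spread was not tested. Over the 34 and the other uncalled values, changes ran from -0.13 to 0.27 in Pax5+/- against WT, from -0.27 to 0.21 in the combined heterozygotes against WT, and from -0.23 to 0.24 against Pax5+/-. Of 3 further family names looked up beside the list, only Nr1h5 was measured, and limma called it in no comparison (0 also at an unadjusted p under 0.05).

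Of 14 measured targets of the LXR and PPAR receptors 1 rose and 3 fell in Pax5+/- (28.6% called, against 7.47% of all clusters), none rose and 2 fell in the combined heterozygotes (14.3%, against 7.78%), and against Pax5+/- 1 was higher and 4 lower (35.7%, against 9.79%). Abca1, the cholesterol exporter and a classical LXR target, read 8.59, 6.31 and 6.38 and relative to WT it fell by 2.28 (adjusted p = 2.33e-05) and fell by 2.21 (adjusted p = 3.32e-05), while the LXR gene Nr1h3 read 6.25, 6.32 and 6.28 and was not called. Nr1h3 lay below the array median in every group, and Nr1h2, the other LXR gene, was not analysed here. Whether LXR expression as a whole changed was therefore not tested. The falls of Abca1 did not pass with the closest pairs averaged (adjusted p = 0.0588 and 0.0661 at most). Cpt1a, which carries fatty acids into mitochondria, fell by 0.49 (adjusted p = 0.00401, and 0.263 at most, with the pairs averaged) and by 1.13 (adjusted p = 4.49e-06). Plin2, a lipid-droplet coat protein, rose in Pax5+/- by 0.92 (adjusted p = 0.000558, and 0.16 at most, with the pairs averaged) and changed by -0.08 in the combined heterozygotes, which did not pass.

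Coregulators carry the receptors' effect to chromatin. Of 18 measured, 1 rose and 2 fell in Pax5+/- (16.7% called, against 7.47% of all clusters), 1 rose and none fell in the combined heterozygotes (5.56%, against 7.78%), and 4 were higher and 1 lower in the combined heterozygotes than in Pax5+/- (27.8%, against 9.79%). The 4 higher ones include Tbl1x, which lies on the X chromosome. Sex-linked differences cannot be told apart from genotype in that comparison. Ncoa3, the steroid receptor coactivator SRC-3, fell in Pax5+/- by 0.52 (adjusted p = 0.00114), and Tbl1x, a subunit of the NCoR corepressor complex, fell by 0.25 (adjusted p = 0.0035). Ncoa4, a coactivator that also delivers ferritin for degradation, rose by 0.67 (adjusted p = 0.00538). Ncoa1, the coactivator SRC-1, rose in the combined heterozygotes by 0.36 against WT (adjusted p = 0.00246) and by 0.49 against Pax5+/- (adjusted p = 0.00016). All of these calls ended with the closest pairs averaged, at adjusted p = 0.201 for Ncoa3, 0.241 for Tbl1x, 0.323 for Ncoa4, and 0.217 and 0.0835 for Ncoa1, the highest over their alternatives. The median change of the coregulators was -0.042, 0.004 and 0.046 in the 3 comparisons, against -0.005, 0.002 and 0.005 over all clusters.

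**Figure D5:**
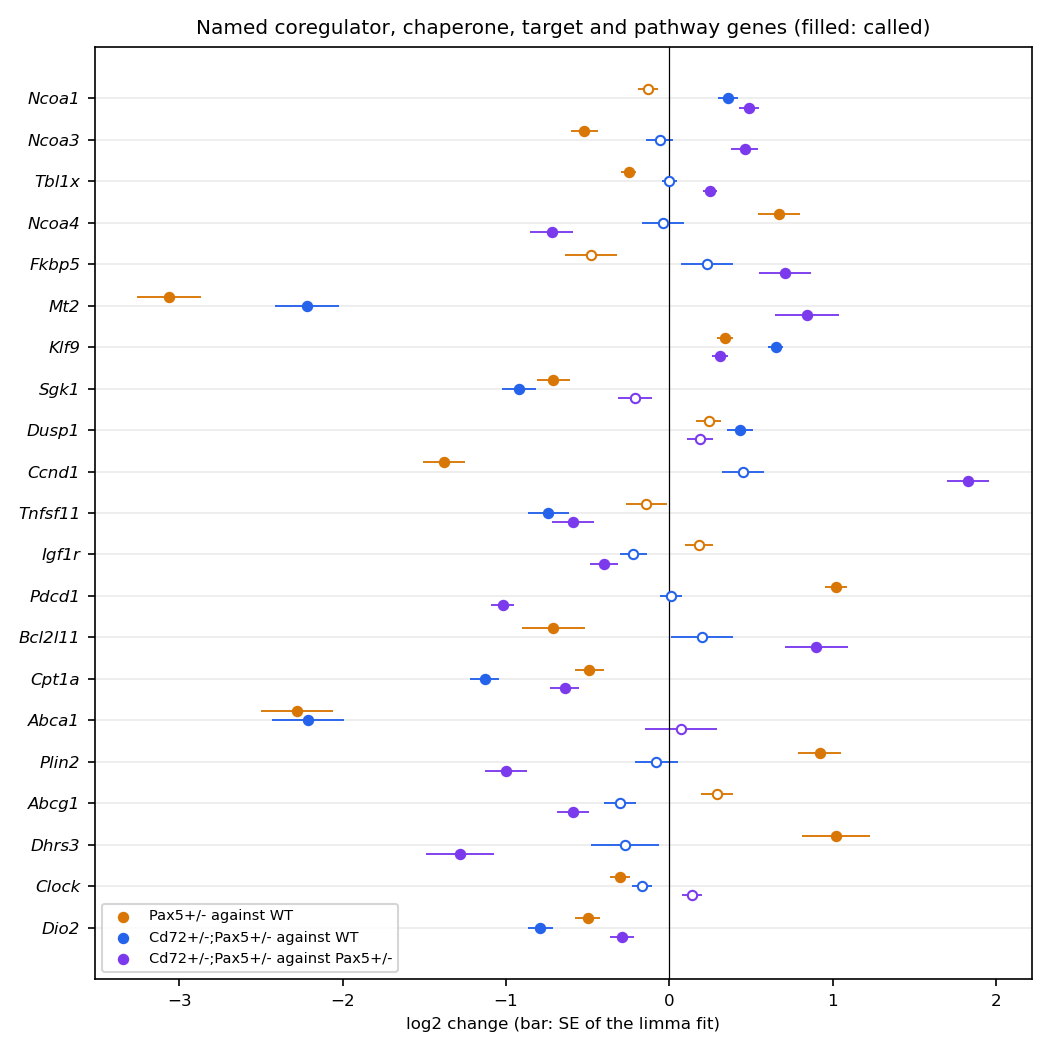
Log2 change of the named coregulators, chaperones, targets and pathway genes in the 3 comparisons (points, with the SE of the limma fit as bars). Filled points are called and open ones are not. Mt2 and Abca1 lie far to the left in both comparisons with WT (-3.06 to -2.21), while Ccnd1 lies at -1.38 in Pax5+/- against WT and at 1.83 in Cd72+/-;Pax5+/- against Pax5+/-.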

How the data were processed

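Total RNA of 12 samples was hybridised to Affymetrix arrays. Per the labels, TRIzol extracts were cleaned on RNeasy columns with DNase and labelled with biotin, and the arrays were analysed in Transcriptome Analysis Console 4.0.3. The deposited values are log2 signals of transcript clusters, and the sources used here name no normalization or centring by the authors. The values were used as deposited. Of 28944 clusters, 21789 carried 1 gene symbol, 1621 several and 5534 none in the platform table, which can be old. All 44 receptors matched the RefSeq table by gene identifier. Groups and their arrays were taken from the labels, and replicates are numbered in deposition order.

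limma 3.58.1 (R 4.3.3) was fitted to all 12 arrays and 23410 clusters with a symbol, with group means and no covariate (9 residual degrees of freedom). Calls needed a p under 0.05 after Benjamini-Hochberg adjustment. The p-values of Pgr and Nr4a1 in the comparisons with Pax5+/- are not given, since those values chose the list. Receptors are described in full where called in any comparison. Others are given by range, by name where among the 6 highest signals, with the wider spreads within a group named after they were seen. Up to 4 called genes of each pathway list are named by smallest adjusted p. On simulated data with 200 changed clusters, changes of 1.41-fold were recovered in 82.1%, 85.1% and 79.1% in the 3 comparisons, and 4-fold changes in 100% of each. The simulated arrays were drawn independently, without the closest pairs seen in WT and Pax5+/-, so these shares may overstate recovery in these data. Promoter letters came from RefSeq (GRCm38.p6), and no probe position was used. The members, lists and tests were chosen with earlier results of these data known. The number of arrays limits the precision. Alternatives covered normalization, filters, thresholds, the prior, the closest pairs of arrays and leaving out each array.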

Additional observations from a re-analysis of the deposited data

Results flagged for a closer look

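Among the 132 sets of 4 arrays (44 receptors in 3 groups) 12 had 1 array farther from the rest than Dixon's critical value for 4 samples allows, where chance gives about 1 in 20. The ratio given is the gap to the nearest array over the range of the group. Of the called receptors, Nr2c1 read 7.27 on WT replicate 3 against 7.00 to 7.02 on the others (0.926), Esrrb read 6.03 on WT replicate 1 against 5.71 to 5.76 (0.844), and Thra read 8.62 on replicate 2 of the combined heterozygotes against 8.71 on each of the others (1). The remaining cases were receptors that were not called. In WT, Rxrg read 5.01 on replicate 2 against 5.10 to 5.11 (0.9), Nr2f1 read 5.58 on replicate 2 against 5.75 to 5.78 (0.85), and Nr0b2 read 6.10 on replicate 3 against 6.06 (1). In Pax5+/-, Nr2e1 read 5.69 on replicate 1 against 5.95 to 6.00 (0.839), and Nr0b1 read 5.63 on replicate 3 against 5.45 to 5.48 (0.833). In the combined heterozygotes, Rara read 8.81 on replicate 1 against 8.64 to 8.65 (0.941), Rora read 5.98 on replicate 1 against 5.91 to 5.92 (0.857), Nr1i3 read 5.74 on replicate 4 against 5.86 to 5.88 (0.857), and Nr2f1 read 5.74 on replicate 1 against 5.76 (1). The values are rounded as deposited, so a ratio of 1 can rest on a gap of a few hundredths.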

How the results depend on the processing

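The number of called receptors was 5 in Pax5+/- against WT, 7 in the combined heterozygotes against WT and 8 in the combined heterozygotes against Pax5+/-. With the closest pairs of arrays averaged, which leaves fewer arrays, it was 3, 1 and 6, and Thrb was the call kept against WT in the combined heterozygotes. At the study's stated threshold (over 2-fold and an unadjusted limma p under 0.05) it was 2, 0 and 2, while the unadjusted p alone gave 7, 12 and 10. Without replicates 1 and 3 of WT and Pax5+/-, a setting chosen after the values were seen, it was 9 in each comparison. Leaving out each array in turn gave 4 to 6, 5 to 7 and 8 to 9. Quantile normalization, arrays shifted to 1 median, dim clusters left out (which tested 22 of the 44), every cluster tested, a trended robust prior, only the groups compared, and gene means in place of single clusters each stayed within 1.5 times of the count. No called result changed direction under any alternative run. Under the 21 alternatives that keep the adjusted p under 0.05, the calls of Nr2c1 in both comparisons with Pax5+/-, of Thrb in both comparisons of the combined heterozygotes, and of Esr1 and Rxra between the mutant groups held, and none of them passed the study's threshold, which asks for 2-fold. No paired analysis was possible because the labels give the 3 groups no shared replicate number. No background signal is used here, so whether receptors below the array median stand above background is not known.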
